A study of Macaca mulatta with 28 samples.

Results

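Very heavy drinkers (VHD, 6 animals) were compared with low drinkers (LD, 10 animals), 16 of the 28 male rhesus macaques whose amygdala RNA was sequenced. Membership came from the drinking category in the labels and used no measured value. VHD animals averaged more than 3 g/kg of ethanol a day and exceeded 4 g/kg on 10% or more of their open-access days, and LD animals fitted the definition of no heavier category. All 16 were ethanol-naive at the start. They learned to take ethanol at 4% (weight per volume) in an induction of 90 days (dose given as 1.5 g/kg). After that they drank by choice for more than 12 months with access 22 hours a day. LD animals were thus drinkers too, and no ethanol-free animal was among the 28. Of the VHD animals, 4 belonged to cohort 5 (average age at induction 5.63 years; replicates 1 to 4) and 2 to cohort 7a (4.18 years; replicates 5 and 6). Of the LD animals, 4 belonged to cohort 4 (8.24 years; replicates 1 to 4), 3 to cohort 7a (replicates 5 to 7) and 3 to cohort 7b (5.69 years; replicates 8 to 10). Replicate numbers follow the order of accession and pair no animals. Ages at the end were given per cohort as 9.98 years (cohort 4), 7.15 (cohort 5), 5.7 (cohort 7a) and 7.18 (cohort 7b). The categories met only in cohort 7a, so that outside it category and cohort (with its age) cannot be told apart.

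The central nucleus of the amygdala (CeA) is an output station of the amygdala that is built mostly of GABA-releasing neurons carrying peptides such as enkephalin, somatostatin and corticotropin-releasing hormone. Stress peptides and opioid peptides of this nucleus are known to take part in ethanol drinking and withdrawal in rodents. It borders the striatum, the cholinergic cells of the basal forebrain, the basolateral amygdala and white matter, and a dissected block can hold pieces of each.

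Each animal gave 1 library of total RNA from a block that contained the CeA. Reads counted over genes totalled 10588509 to 19107842 per VHD library (mean 14362478) and 6474295 to 25928489 per LD library (mean 15883142), and depth did not differ beyond its spread (two-sided exact permutation test, p = 0.571). Values are normalized reads, the authors' reads multiplied by 1 factor per library. In these 16 libraries, 3 reads were worth 1.82 to 6.73 normalized reads. The values are not divided by gene length, so levels are compared between animals and not between genes. In bulk tissue, fewer cells of a type and less RNA per cell cannot be told apart. CeA markers were looked at for detection only, since 13022 of 15521 genes passed the filter on low values. All 19 listed CeA receptor and identity genes passed the filter on low values, among them PRKCD, a kinase of lateral CeA neurons, which had 174 to 696 normalized reads in VHD animals and 356 to 850 in LD animals. Markers of neighbouring tissue passed as well and varied from block to block. They included 9 of 9 cholinergic genes, 18 of 18 myelin genes and 13 of 13 genes of choroid plexus, ependyma and meninges. Passing the filter therefore does not tell the CeA from its neighbours.

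Between VHD and LD animals, 0 of 13022 genes passed the test over all genes (limma, Benjamini-Hochberg adjusted p under 0.05), either with cohort as a term or without it. At an unadjusted p under 0.05 the fit with cohort held 1116 genes (8.57%), of which 547 were higher in VHD (4.2%) and 569 lower (4.37%), and the smallest adjusted p was 0.324. The fit without cohort held 2094 genes (16.1%), of which 1180 were higher (9.06%) and 914 lower (7.02%), with a smallest adjusted p of 0.0846. The median standard error of a log2 difference was 0.17 with cohort and 0.13 without it, and for 81.4% and 87.7% of genes the whole 95% interval stayed inside a 2-fold change in either direction. Of all genes tested, 81.1% had the same sign in both fits. By edgeR on recovered whole reads, 0 genes passed with cohort and 2 without it (AVP and CD81), and by DESeq2 4 genes (AVP, FXYD5, PSD2 and TMEM132D) and 307. These counts depended on single libraries. Without VHD replicate 6, 1 gene (PSD2) passed with cohort and 88 passed without it. In the fit without cohort, 308 genes passed without VHD replicate 1, 10 without VHD replicate 2, 90 without LD replicate 7 and 1 (FBXO32) without LD replicate 5. At an unadjusted p under 0.05, the fewest genes were counted without LD replicate 6 in the fit with cohort (735) and without VHD replicate 3 in the fit without it (1226).

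Genes that reached an unadjusted p under 0.05 in both fits numbered 401 higher in VHD (3.08% of those tested) and 356 lower (2.73%). All 757 had the same sign in cohort 7a, whose animals are part of both fits, so that condition removed 0 genes. Folds below are fitted on log2(value + 1), VHD over LD, given first with cohort as a term and then without it. With cohort as a term, heavy and binge drinkers also set the fitted cohort differences. The folds with cohort therefore do not rest on VHD and LD animals alone. With VHD and LD libraries alone, 191 of 12847 genes reached an unadjusted p under 0.05 with cohort. None of the genes passed the test unless a test is named as passed. Counts of list members are to be read beside the shares of all genes. These were 52.5% higher and 47.5% lower with cohort, and 50.3% and 49.7% without it. At an unadjusted p under 0.05 the shares were those given above.

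PSD2, an exchange factor that activates the small GTPase ARF6 and is abundant in brain, lies on chromosome 5 (137338598 to 137386751 in the coordinates of the deposited exon table). Its lowest, median and highest levels were 2543, 2718 and 3451 normalized reads in VHD, against 1929, 2270 and 2603 in LD. The groups overlapped, with 6 of 6 VHD animals above the LD mean and 4 of 6 above the highest LD animal. Means were 2807 ± 340 in VHD and 2247 ± 202 in LD (SD, n = 6 and 10), a fold of 1.33 (95% interval 1.17 to 1.52) with cohort and 1.25 (1.12 to 1.39) without it, with limma adjusted p-values of 0.477 and 0.104. The VHD minus LD difference within cohort 7a was 0.31 on the log2 scale.

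FBXO32, the muscle-wasting ubiquitin ligase atrogin-1 and a target of FOXO factors (chromosome 8, 122437448 to 122480878), was at 953, 1106 and 1535 normalized reads in VHD, against 650, 756 and 1090 in LD, lowest, median and highest. It overlapped between groups, with 4 of 6 VHD animals above every LD animal, and its folds were 1.48 (1.21 to 1.82) and 1.46 (1.26 to 1.70). CCNI, cyclin I (chromosome 4, 57372870 to 57400289), was at 2419, 3337 and 4467 normalized reads in VHD, against 1629, 2019 and 2731 in LD. Its folds were 1.51 (1.20 to 1.91) and 1.56 (1.30 to 1.87), and again 4 of 6 VHD animals lay above every LD animal.

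CD44, the hyaluronan receptor, which astrocytes and activated cells carry (chromosome 11, 30494011 to 30585489), showed one of the wider gaps. It was at 132, 325 and 551 normalized reads in VHD, against 61.1, 112 and 203 in LD. VHD replicates 2 and 6 lay within the LD range and the other 4 above it. The folds were 2.96 (1.60 to 5.46) and 2.55 (1.62 to 4.03). TGFB2, a TGF-beta cytokine (chromosome 1, 147551290 to 147647143), did not overlap, at 850, 1022 and 1218 normalized reads in VHD, against 673, 779 and 843 in LD, with folds of 1.33 (1.13 to 1.56) and 1.32 (1.17 to 1.48). ID3, an inhibitor of helix-loop-helix transcription factors that TGF-beta family signals induce, was at 126, 184 and 341 normalized reads in VHD, against 54.8, 97.6 and 140 in LD. Its folds were 2.21 (1.39 to 3.52) and 1.99 (1.41 to 2.80), and 5 of 6 VHD animals lay above every LD animal. ADAMTS9, a protease of the extracellular matrix, averaged 169 ± 37.0 normalized reads in VHD and 99.1 ± 27.7 in LD, with folds of 2.05 and 1.72.

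Other genes of the same group were DAAM2, a formin of Wnt signalling (6535 ± 1273 normalized reads in VHD and 4736 ± 876 in LD; folds 1.45 and 1.38), and SLC29A2, a nucleoside transporter (172 ± 34.4 and 119 ± 29.3; folds 1.65 and 1.45). CPNE9, a copine that binds membranes in the presence of calcium, was at 58.1, 235 and 342 normalized reads in VHD, against 10.1, 47.8 and 204 in LD. The folds were 4.97 (1.96 to 12.6) and 4.07 (1.93 to 8.61), and 5 of 6 VHD animals lay above the LD mean. KIAA1024 was at 196, 536 and 849 normalized reads in VHD, against 101, 205 and 522 in LD, with folds of 2.85 and 2.60.

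Some genes led in one fit and less in the other. With cohort as a term, MARC1, a mitochondrial reductase (fold 1.83, 1.36 without cohort), OSBPL3, an oxysterol-binding protein (2.16, 1.44), GLT25D2, which adds sugar to collagen (1.52, 1.23), and CDKAL1, a tRNA-modifying enzyme (1.28, 1.12), were among the higher genes of smallest p. Without cohort, CD81 stood first. CD81, a tetraspanin of the cell surface, was at 5047, 7083 and 9452 normalized reads in VHD, against 3295, 4960 and 5445 in LD, with 5 of 6 VHD animals above every LD animal. Its folds were 1.40 (1.14 to 1.72) with cohort and 1.54 (1.31 to 1.82) without it (limma adjusted p = 0.0846). Other higher genes of small p in the fit without cohort were ELOVL5, an elongase of polyunsaturated fatty acids (1.33 with cohort, 1.42 without), SLC44A2, a choline transporter-like protein (1.27, 1.37), ZDHHC9, a palmitoyltransferase (1.39, 1.42), NKX2-2, a transcription factor of the oligodendrocyte lineage (1.43, 1.62), and CDK6, a cell-cycle kinase (1.66, 1.73). FAM222B (1.40, 1.43) was of the same rank.

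**Figure D1:**
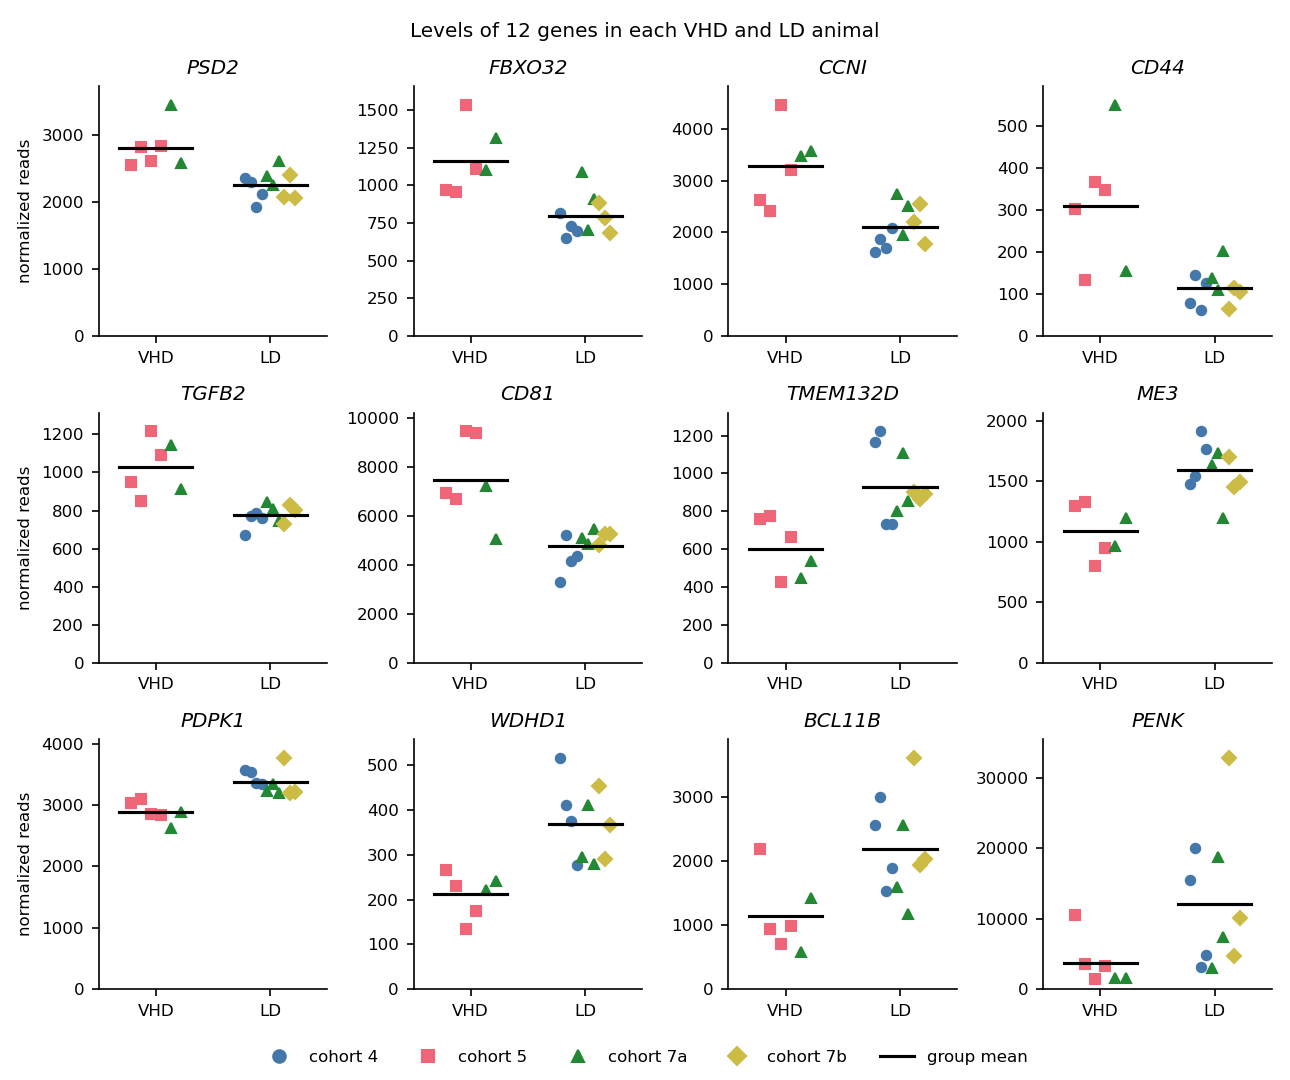
Levels of 12 genes in normalized reads (vertical axes, from 0) in 6 VHD and 10 LD animals, 1 point per animal, with the symbol giving the cohort and the bar the group mean. PSD2, FBXO32, CCNI, CD44, TGFB2 and CD81 were higher in VHD and the other 6 lower. TGFB2, PDPK1 and WDHD1 did not overlap between groups.

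Among the lower genes, TMEM132D, a single-pass membrane protein of neurons and oligodendrocytes (chromosome 12, 128944881 to 129863182), was at 428, 602 and 774 normalized reads in VHD, against 731, 879 and 1223 in LD. The groups overlapped by the 2 highest VHD animals, which lay just within the LD range. Its folds were 0.502 (0.376 to 0.670) with cohort and 0.641 without it. ME3, the mitochondrial malic enzyme that makes NADPH (chromosome 11, 78279662 to 78504786), was at 796, 1079 and 1329 normalized reads in VHD, against 1199, 1588 and 1915 in LD. For ME3, 4 of 6 VHD animals lay below every LD animal, and the folds were 0.641 (0.518 to 0.793) and 0.677 (0.580 to 0.791). SFXN2, a mitochondrial sideroflexin, averaged 110 ± 16.4 normalized reads in VHD and 165 ± 35.5 in LD, with folds of 0.609 and 0.678.

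PDPK1, the kinase that activates AKT downstream of PI3K (chromosome 16, 2554880 to 2636363), separated the groups. It was at 2629, 2869 and 3090 normalized reads in VHD, against 3188, 3340 and 3770 in LD, so that each VHD animal lay below each LD animal, by a small margin. The folds were 0.809 (0.727 to 0.900) and 0.856 (0.788 to 0.929), and the cohort 7a difference was -0.24 on the log2 scale. WDHD1, a DNA replication factor (chromosome 14, 116718696 to 116804907), did not overlap either, at 134, 226 and 266 normalized reads in VHD, against 278, 372 and 516 in LD, with folds of 0.568 (0.401 to 0.805) and 0.574 (0.446 to 0.740).

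Several lower genes are known from neurons of the striatum and cortex. BCL11B, a transcription factor of striatal projection neurons and deep cortical neurons, was at 586, 956 and 2184 normalized reads in VHD, against 1169, 1986 and 3610 in LD. VHD replicate 1 alone lay above the LD median, 4 of 6 VHD animals lay below every LD animal, and the folds were 0.434 (0.269 to 0.699) and 0.493 (0.336 to 0.725). PTPRR, a tyrosine phosphatase of MAP kinases, averaged 796 ± 339 normalized reads in VHD and 1447 ± 362 in LD, with folds of 0.452 and 0.522. GDA, guanine deaminase, averaged 4633 ± 1997 in VHD and 7727 ± 1955 in LD, with folds of 0.488 and 0.573. PRMT8, an arginine methyltransferase of neurons, was below every LD animal in 5 of 6 VHD animals, with folds of 0.513 and 0.577. PDE1A, a calmodulin-dependent phosphodiesterase, had folds of 0.608 and 0.574, and RAI14, which binds actin, 0.640 and 0.642.

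Other lower genes among those of smallest p were NHLRC1, the ubiquitin ligase malin (folds 0.689 and 0.763), UBXN11 (0.670 and 0.743), MBLAC2 (0.737 and 0.754), GPCPD1, a glycerophosphocholine phosphodiesterase (0.752 and 0.755), HS6ST2, a heparan sulfate sulfotransferase (0.564 and 0.709), WDR1, which takes part in actin disassembly (0.674 and 0.823), PLCXD3 (0.630 and 0.708), DHDH (0.579 and 0.701), COQ6, an enzyme of coenzyme Q synthesis (0.780 and 0.780), FIP1L1, a polyadenylation factor (0.857 and 0.851), and WDR17 (0.717 and 0.690). For each of these 11, 6 of 6 VHD animals lay below the LD mean.

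Over all genes tested, 5 had every VHD animal above every LD animal (0.0384%) and 6 had every VHD animal below every LD animal (0.0461%). The higher ones were TGFB2, RABGAP1, a Rab GTPase activator (folds 1.20 and 1.15), SLC38A2, a neutral amino acid transporter (1.26 and 1.27), STK3, a Hippo pathway kinase (1.40 and 1.31), and TMEM123 (1.26 and 1.42). The lower ones were PDPK1, WDHD1, PRMT10, an arginine methyltransferase (0.817 and 0.819), DNAJC19, a mitochondrial import co-chaperone (0.846 and 0.861), EIF3B, a translation initiation subunit (0.863 and 0.920), and ZNF132 (0.856 and 0.762). SLC38A2, STK3, TMEM123, DNAJC19, EIF3B and ZNF132 were named after their values were seen. SLC38A2 had 2971 to 3183 normalized reads in VHD animals, against 1991 to 2915 in LD, and EIF3B at 1751 to 1935 in VHD, against 1981 to 2108 in LD, so both gaps were narrow.

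**Figure D2:**
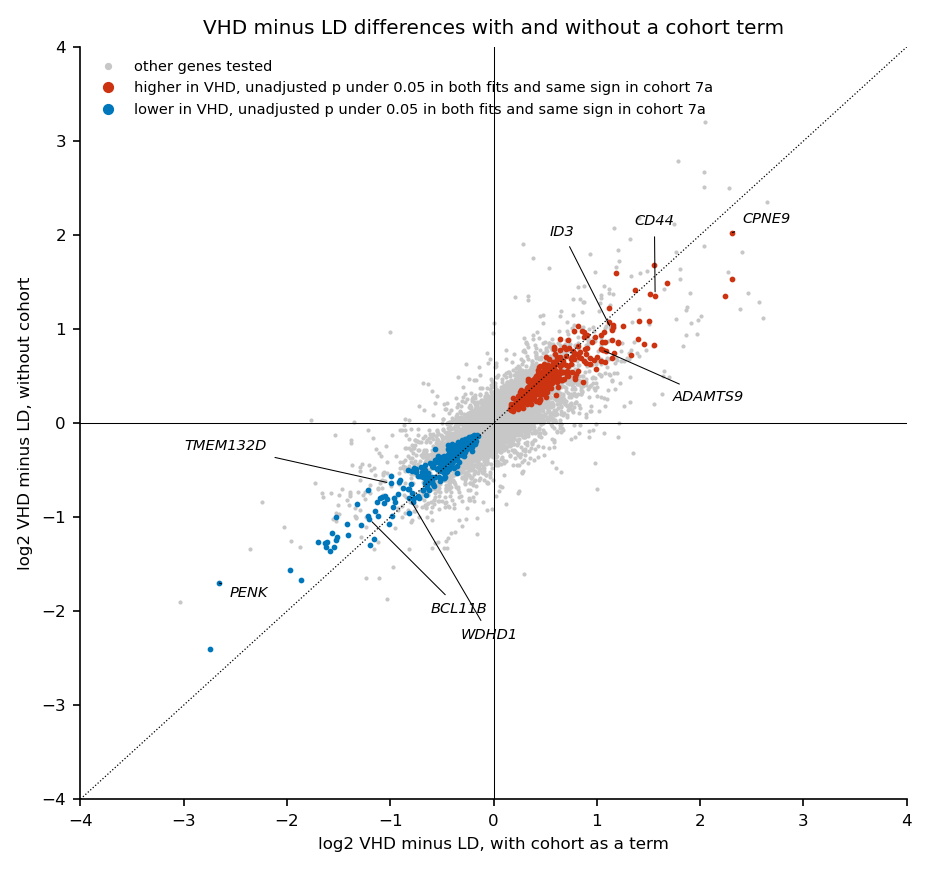
Fitted log2 difference, VHD minus LD, of each of 13022 genes with cohort as a term (horizontal axis) and without it (vertical axis). The 401 red and 356 blue genes reached an unadjusted p under 0.05 in both fits, and PENK (-2.66 with cohort and -1.70 without) and CPNE9 lie near the ends of the cloud.

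Markers of cholinergic neurons, which belong to the basal forebrain beside the CeA, separated the VHD blocks among themselves. CHAT, the enzyme that makes acetylcholine, was at 171, 376, 1687, 1566, 1450 and 0.823 normalized reads in VHD replicates 1 to 6, against a lowest, median and highest of 2.88, 77.2 and 826 in LD. VHD replicates 3, 4 and 5 stood far above all LD animals except LD replicate 7, which held the 826, and VHD replicate 6 stood below all of them. SLC5A7, the choline transporter of these neurons, was at 11907, 9650 and 7493 in VHD replicates 3, 4 and 5 and at 105 in VHD replicate 6, against 106, 405 and 4991 in LD. The summed level of the 9 cholinergic markers ranged from 824 to 26104 normalized reads among VHD animals (median 12750) and from 1237 to 13171 among LD animals (median 1925). Their median log2 difference was 0.28 with cohort, 1.75 without it and -0.41 in cohort 7a, and 0 of 9 members reached an unadjusted p under 0.05 with cohort and 3 of 9 without it.

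Single blocks also held other neighbours. AVP, vasopressin, reached 21751 normalized reads in VHD replicate 5, while the other 5 VHD animals had 14.5 or less, against 0 to 69.6 in LD, and OXT, oxytocin, was at 4478 in VHD replicate 5. TBR1, a transcription factor of cortical and basolateral excitatory neurons, was at 611 in VHD replicate 6 and at 53.6 to 141 in the other VHD animals, against 2.45 to 378 in LD. The summed level of the choroid plexus, ependyma and meninges list was 1197 to 3083 in VHD and 1383 to 3871 in LD, with 10 of 13 members higher with cohort (median log2 difference 0.10) and 9 of 13 without it (0.21). Without the 5 libraries rich in CHAT, described in the next paragraph, 4 and 2 of the 13 were higher, with medians of -0.17 and -0.13, and with cohort the median was also below 0 without VHD replicate 4 (-0.0014) or VHD replicate 5 (-0.15). Of 12 listed blood cell genes, 0 were among the genes tested. Of 7 hypothalamic peptide genes 6 were higher in each fit (medians 1.49 and 1.29), but without VHD replicate 5 the medians were -0.12 and -0.22. Of 10 cortical and basolateral genes 6 were higher with cohort and 2 without it (medians 0.14 and -0.25). Without the 5 libraries rich in CHAT, 8 and 7 were higher, with medians of 0.62 and 0.74. With 1 library left out, the median with cohort ranged from -0.59 to 0.89.

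The 5 libraries with more than 500 normalized reads of CHAT were VHD replicates 3, 4 and 5, LD replicate 7 and 1 binge drinker. They were left out in a step chosen after the values were seen. Of 12947 genes tested, 341 with cohort and 320 without it reached an unadjusted p under 0.05 (1116 and 2094 of 13022 with all libraries). Without the 5 libraries, 0 genes passed the test. Only 3 VHD animals remained in that fit. PSD2 kept folds of 1.29 and 1.20, TMEM132D of 0.565 and 0.741, CD44 of 2.40 and 1.83, and PENK of 0.230 and 0.429. MBP, by contrast, was at 1.11 and 1.16 and GRIA1 at 0.904 and 0.911. These genes do not stand for all named genes. KIAA1024 was at 849, 631 and 826 in VHD replicates 3, 4 and 5, against 196, 439 and 442 in VHD replicates 1, 2 and 6. LD replicate 7 was the highest LD animal for it (522). PDE1A was at 739, 1008 and 844 in VHD replicates 3, 4 and 5, against 2183, 1607 and 2185 in VHD replicates 1, 2 and 6. LD replicate 7 was the lowest LD animal for PDE1A (1653). The part that neighbouring tissue had in any of the differences was not tested.

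**Figure D3:**
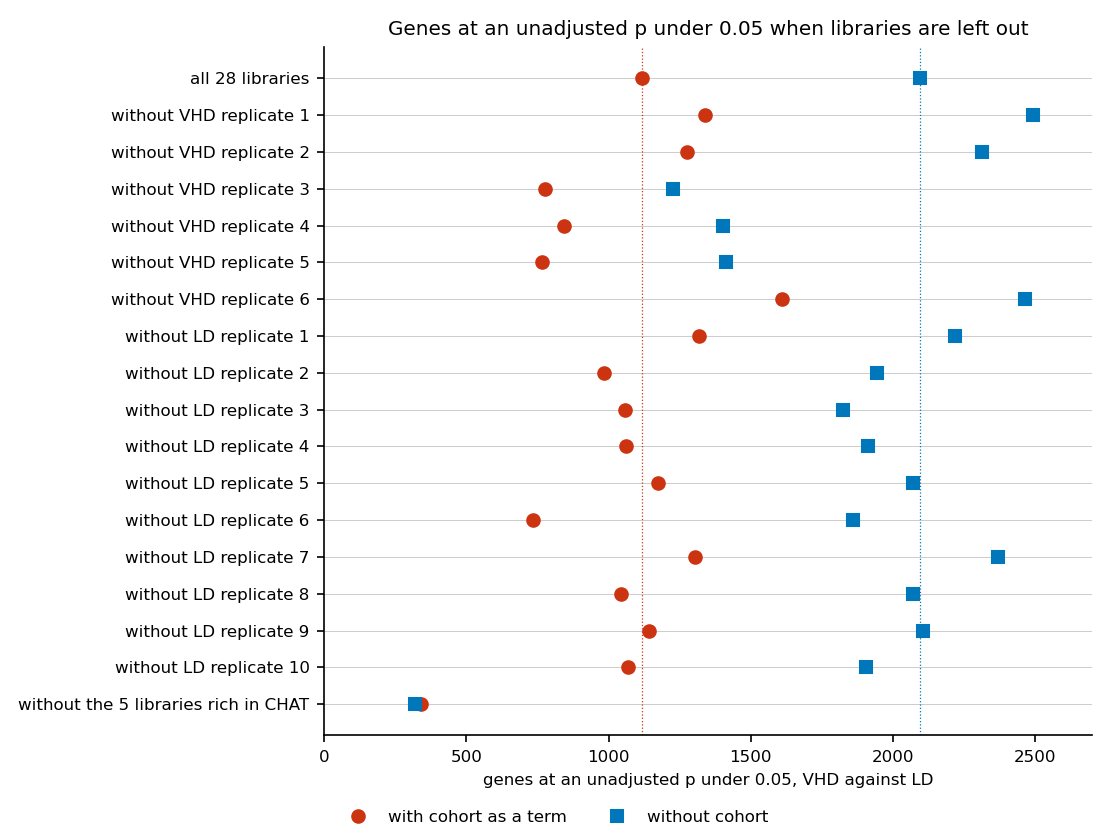
Number of genes at an unadjusted p under 0.05 between VHD and LD (horizontal axis) in the fit with cohort (circles) and without it (squares), with all 28 libraries, without each VHD and LD library and without the 5 libraries rich in CHAT. The counts ran from 735 to 1610 with cohort and from 1226 to 2494 without it when 1 library was left out, and were 341 and 320 without the 5 libraries.

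Myelin genes stood higher in VHD. With cohort, 18 of 18 members were above 1-fold (52.5% of all genes were), with a median log2 difference of 0.42 (0.01 over all genes), and 4 reached an unadjusted p under 0.05. Without cohort it was 18 of 18 (50.3% of all genes), a median of 0.50 and 15 members at that p. CNP, an enzyme of the myelin sheath, was at 5700, 8301 and 10398 normalized reads in VHD, against 3857, 5092 and 7861 in LD, with 4 of 6 VHD animals above every LD animal and folds of 1.44 (1.09 to 1.91) and 1.53 (1.25 to 1.88). MYRF, the transcription factor that switches on myelin genes, had folds of 1.48 and 1.71. In cohort 7a the median of the list was 0.12, with 14 of 18 members higher. Without the 5 libraries rich in CHAT it was 0.23 with cohort and 0.28 without it. Of 8 genes of oligodendrocyte precursors, 6 were higher with cohort and 7 without it, with medians of 0.19 and 0.31 (0.13 and 0.09 without those libraries).

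Of 14 astrocyte genes, 12 were above 1-fold with cohort (median log2 difference 0.23) and 13 without it (0.30), and 1 and 8 reached an unadjusted p under 0.05 (4.2% and 9.06% of all genes). Their median was 0.10 in cohort 7a and 0.12 and 0.14 without the CHAT-rich libraries, and with cohort it was 0.092 without VHD replicate 5. GFAP, the astrocyte filament protein, was at 37637, 58779 and 99937 normalized reads in VHD, against 26396, 33812 and 60195 in LD. LD replicate 7 held the 60195, and the folds were 1.65 and 1.71. S100B, a calcium-binding protein of astrocytes, averaged 3767 ± 855 in VHD and 2829 ± 571 in LD (folds 1.40 and 1.33), and GLUL, which turns glutamate into glutamine, 35034 ± 5955 in VHD and 28139 ± 2104 in LD (1.18 and 1.23). Of 13 genes known from reactive astrocytes, 11 were higher with cohort (median 0.31) and 13 without it (0.34; 0.31 and 0.23 without the CHAT-rich libraries), among them SERPINA3, a protease inhibitor (1.98 and 1.55), and CD109 (1.46 and 1.38). CRYAB, a small heat shock protein of glia, averaged 1656 ± 434 normalized reads in VHD and 1049.5 ± 345 in LD, with folds of 1.55 and 1.61, while the list of 20 unfolded protein response and chaperone genes as a whole had 9 members higher with cohort and 10 without it. In that list PDIA6, a protein disulfide isomerase, stood lower (0.832 and 0.830), as did HSPH1 (0.828 and 0.859) and DNAJC3 (0.885 and 0.924).

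Of 18 genes of cholesterol synthesis and transport, 16 were higher with cohort and 18 without it (52.5% and 50.3% of all genes), with medians of 0.20 and 0.21. Without the CHAT-rich libraries the medians were 0.11 and 0.08. INSIG1, which holds back cholesterol synthesis when sterols are plentiful, was at 1404, 2476 and 2812 normalized reads in VHD, against 927, 1448 and 2137 in LD (folds 1.43 and 1.50), and HMGCS1, an early enzyme of the pathway, had folds of 1.41 and 1.29. Of 18 genes of sphingolipid and fatty acid synthesis, 12 were higher in each fit, with medians of 0.12 and 0.14 (0.03 and 0.08 without the CHAT-rich libraries). At an unadjusted p under 0.05, 4 were higher and 0 lower with cohort, and 6 were higher and 2 lower without it. SCD, which puts the double bond into fatty acids, was at 10190, 15506 and 19810 normalized reads in VHD, against 7297, 10091 and 14587 in LD, with folds of 1.46 (1.14 to 1.86) and 1.49 (1.23 to 1.82). ELOVL6, an elongase (1.29 and 1.19), and CERS2, the ceramide synthase of very long chains (1.28 and 1.30), were above the LD mean in 6 of 6 VHD animals each.

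Of 15 precursors of CeA peptides, 9 were lower in each fit (47.5% and 49.7% of all genes), with medians of -0.24 and -0.20 that depended on the CHAT-rich libraries (-0.00699 and 0.07 without them). At an unadjusted p under 0.05, 3 were lower and 0 higher with cohort, and 2 were lower and 2 higher without it. PENK, the enkephalin precursor, was at 10512, 3639, 1405, 3280, 1539 and 1561 normalized reads in VHD replicates 1 to 6, against a lowest, median and highest of 3018, 8757 and 32856 in LD. VHD replicate 1 alone exceeded the LD median, and 3 of 6 VHD animals lay below every LD animal. The folds were 0.159 (0.0524 to 0.480) and 0.307 (0.115 to 0.819). CRH, corticotropin-releasing hormone, was at 16.9, 35.2 and 44.8 normalized reads in VHD, against 37.5, 55.5 and 81.0 in LD, with folds of 0.602 (0.371 to 0.978) and 0.585 (0.399 to 0.858). PNOC, the nociceptin precursor, had folds of 0.568 and 0.719, SST, somatostatin, 0.606 and 0.871, and PDYN, the dynorphin precursor, 0.848 and 0.778. NPY, neuropeptide Y, was on the other side at 1.25 and 1.15. SST and PDYN lay above 1-fold without the CHAT-rich libraries in the fit without cohort (log2 differences of 0.02 and 0.12).

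Of 19 CeA receptor and identity genes, 13 were lower in each fit, with medians of -0.33 and -0.26. MC4R, the melanocortin receptor, averaged 69.7 ± 46.6 normalized reads in VHD and 89.1 ± 46.9 in LD, with folds of 0.413 (0.214 to 0.797) and 0.739 (0.388 to 1.41). PRKCD was at 174, 333 and 696 normalized reads in VHD, against 356, 538 and 850 in LD (0.653 and 0.655). MEIS2, a transcription factor of intercalated and striatal cells, had folds of 0.591 and 0.711, and CRHR1, the main CRH receptor, 1.21 and 0.962. The median of this list without the CHAT-rich libraries was -0.05 with cohort and 0.02 without it. Of 8 genes of the opioid system, 6 were lower in each fit (medians -0.27 and -0.28, and -0.21 and -0.03 without the CHAT-rich libraries), while OPRM1, the mu receptor, was at 1.43 and 1.38. Of 18 genes of the CRH and glucocorticoid system, 13 were higher with cohort and 11 without it (medians 0.12 and 0.11). In cohort 7a, 7 of them were higher and 11 lower, with a median of -0.00823. FKBP5, a chaperone that glucocorticoids induce, was at 203, 358 and 484 normalized reads in VHD, against 187, 241 and 370 in LD (folds 1.37 and 1.31). NR3C1, the glucocorticoid receptor, was at 1.06 and 1.09.

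Of 12 genes of striatal medium spiny neurons, 12 with cohort were below 1-fold (median -0.45) and without it 10 of 12 (median -0.26). Of all genes, 47.5% and 49.7% were lower. At an unadjusted p under 0.05, 3 and 2 of the list were lower (4.37% and 7.02% of all genes). The medians were -0.25 and -0.14 without the CHAT-rich libraries, and in the fit without cohort the median was -0.064 without LD replicate 8. PENK and BCL11B were among these in each fit. The summed level of the list was 9487 to 25860 in VHD and 11402 to 70546 in LD. General GABA neuron genes split, with 6 of 11 higher with cohort and 5 without it (medians 0.17 and -0.14). At an unadjusted p under 0.05, 1 was higher and 4 lower with cohort, and 2 were higher and 0 lower without it. Among the lower members, GAD1 and GAD2, which make GABA, had folds of 0.692 and 0.571 with cohort and 0.844 and 0.773 without it. SLC32A1, the vesicular GABA transporter, had 0.554 and 0.833. Of 14 pan-neuronal genes 8 were higher with cohort and 5 without it.

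Of 19 glutamate receptor genes, 13 were lower with cohort and 12 without it, and 6 and 7 of them reached an unadjusted p under 0.05 (4.37% and 7.02% of all genes), with medians of -0.18 and -0.15. GRIA1, an AMPA receptor subunit, was at 6446, 8055 and 9208 normalized reads in VHD, against 8260, 9622 and 11426 in LD, with 3 of 6 VHD animals below every LD animal and folds of 0.799 (0.682 to 0.937) and 0.810 (0.723 to 0.908). GRM7, a presynaptic metabotropic receptor, averaged 969 ± 274 in VHD and 1320 ± 147 in LD (0.741 and 0.714), and GRM8, a close relative, had folds of 0.704 and 0.738. GRIN1, the NMDA receptor subunit present in every such receptor, was at 0.753 with cohort and 0.925 without it. Of 11 GABA-A receptor subunits, 6 were lower in each fit, among them GABRB1 (0.799 and 0.799) and GABRG1 (0.700 and 0.807). Without the CHAT-rich libraries the medians were 0.03 and -0.01 for glutamate receptors and -0.03 and -0.06 for GABA-A receptors. Of 14 ion channels known to respond to ethanol, 9 and 10 were lower and 0 and 1 reached an unadjusted p under 0.05, with medians of -0.13 and -0.10 (0.03 and 0.04 without the CHAT-rich libraries). Vesicle release genes were balanced, with 9 of 19 higher with cohort and 12 without it. RBFOX1, a splicing factor of neurons, averaged 2693 ± 1006 in VHD and 3837 ± 725 in LD (0.661 and 0.670).

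Genes of energy metabolism differed little in size. Of 22 nuclear genes of oxidative phosphorylation, 20 were lower with cohort and 19 without it, with medians of -0.17 and -0.12 and 0 and 1 members at an unadjusted p under 0.05. Without the CHAT-rich libraries the medians were -0.10 and -0.04. NDUFV1, a complex I subunit, averaged 1847 ± 265 normalized reads in VHD and 2134 ± 215 in LD (folds 0.821 and 0.862). Of 35 cytosolic ribosomal protein genes, 32 were lower with cohort and 23 without it (medians -0.12 and -0.06, and -0.06 and 0.01 without the CHAT-rich libraries), and of 20 mitochondrial ribosomal protein genes 16 and 14. MRPL13, of the large mitochondrial subunit, was at 401, 453 and 532 normalized reads in VHD, against 460, 537 and 670 in LD (0.785 and 0.837). SLC2A3, the glucose transporter of neurons, averaged 2190 ± 117 in VHD and 2653 ± 294 in LD (0.794 and 0.830), and of 20 glycolysis and lactate genes 10 and 14 were higher. Of 20 malic enzyme and citric acid cycle genes 14 were lower in each fit, ME3 with the smallest p, while ME1, the cytosolic malic enzyme, was at 1.20 in both fits and IDH1, the cytosolic isocitrate dehydrogenase, at 1.28 and 1.26.

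Of 16 listed enzymes that handle ethanol, acetaldehyde and acetate, 9 passed the filter on low values. Of these, 8 were above 1-fold in each fit (52.5% and 50.3% of all genes), with medians of 0.17 and 0.14. Without the CHAT-rich libraries the medians were 0.13 and 0.08. At an unadjusted p under 0.05, 1 and 3 were higher (4.2% and 9.06% of all genes). ACSS2, which turns acetate into acetyl-CoA, was at 561, 694 and 966 normalized reads in VHD, against 491, 566 and 694 in LD, with 3 of 6 VHD animals above every LD animal and folds of 1.32 (1.07 to 1.62) and 1.25. CAT, catalase, was at 1.18 and 1.20. ALDH2, the mitochondrial acetaldehyde dehydrogenase, was at 3449, 3829 and 4287 normalized reads in VHD, against 2949, 3662 and 4358 in LD, with folds of 1.01 (0.832 to 1.23) and 1.07 (0.928 to 1.23).

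Clock genes stood on both sides. Of 15 tested, 4 higher and 1 lower reached an unadjusted p under 0.05 with cohort, and 3 higher and 2 lower without it. Of all genes, 4.2% were higher and 4.37% lower at that p with cohort, and 9.06% and 7.02% without it. RORA, a nuclear receptor that drives ARNTL, was at 2074, 2197 and 2672 normalized reads in VHD, against 1542, 1736 and 2368 in LD (folds 1.41 and 1.25). PER1, a repressor of the loop, was at 521, 672 and 863 in VHD, against 232, 501 and 749 in LD (1.46 and 1.38). ARNTL, its activator, was at 452, 519 and 600 in VHD, against 556, 711 and 822 in LD, with 5 of 6 VHD animals below every LD animal and folds of 0.756 (0.622 to 0.920) and 0.748 (0.650 to 0.860). Of 16 immediate early genes, 7 and 5 were higher, among them FOS at 1.38 and 1.12.

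Of 19 interferon response and antigen presentation genes, 14 were higher with cohort and 17 without it (52.5% and 50.3% of all genes). At an unadjusted p under 0.05, 2 and 4 were higher (4.2% and 9.06% of all genes). CD74, the invariant chain of MHC class II, was at 446, 758 and 1142 normalized reads in VHD, against 279, 393 and 644 in LD, with 5 of 6 VHD animals above every LD animal and folds of 1.97 (1.23 to 3.15) and 1.89 (1.32 to 2.71). MX1, an antiviral protein that interferon induces, had folds of 1.56 and 1.44, and RELA, the p65 subunit of NF-kappaB, 1.26 and 1.39. Of 16 innate immune signalling genes 8 and 14 were higher (medians 0.00 and 0.11), and of 13 microglia genes 8 and 12 (0.16 and 0.10), with C1QC of complement at 1.35 and 1.16 and AIF1 at 0.849 and 1.01. Of 17 collagen, laminin and matrix genes 13 and 11 were higher, among them HSPG2, perlecan (1.50 and 1.75), and LAMA1 (1.57 and 1.37). The summed level of 14 endothelial and pericyte genes was 4774 to 8081 in VHD and 4694 to 6540 in LD. Of these genes 9 and 8 were higher (medians 0.11 and 0.06), and 3 and 3 without the CHAT-rich libraries (-0.15 and -0.22). With all libraries the medians were 0.16 and 0.27 for the interferon list and 0.18 and 0.11 for the matrix list. Without the CHAT-rich libraries, they were -0.03 and 0.14 for the interferon list, -0.04 and -0.18 for the matrix list, -0.02 and -0.04 for the innate list and 0.07 and -0.02 for the microglia list. The median of the matrix list without cohort was also below 0 without VHD replicate 4 (-0.021).

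The insulin, PI3K and FOXO list, which holds PDPK1 and FBXO32, had 13 of 25 members higher with cohort and 12 without it. In the same list SESN3, another FOXO target, was at 0.715 and 0.778. Among 5 TMEM132 genes, 4 were lower in each fit (medians -0.20 and -0.08), TMEM132D first, while TMEM132E was at 1.33 and 1.65. Among 15 ARF exchange factors, 8 and 7 were higher, and PSD, a relative of PSD2, was at 0.708 and 0.732. Of 21 chromatin modifiers 14 and 13 were higher, and of 17 very long neuronal genes 8 and 6. Of 9 markers of the pallidum and thalamus 6 and 7 were higher, with medians of 0.41 and 0.36 (0.14 in cohort 7a, and 0.33 and 0.16 without the CHAT-rich libraries). At an unadjusted p under 0.05, 1 of the 9 was higher and 0 lower with cohort, and 2 were higher and 1 lower without it.

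**Figure D4:**
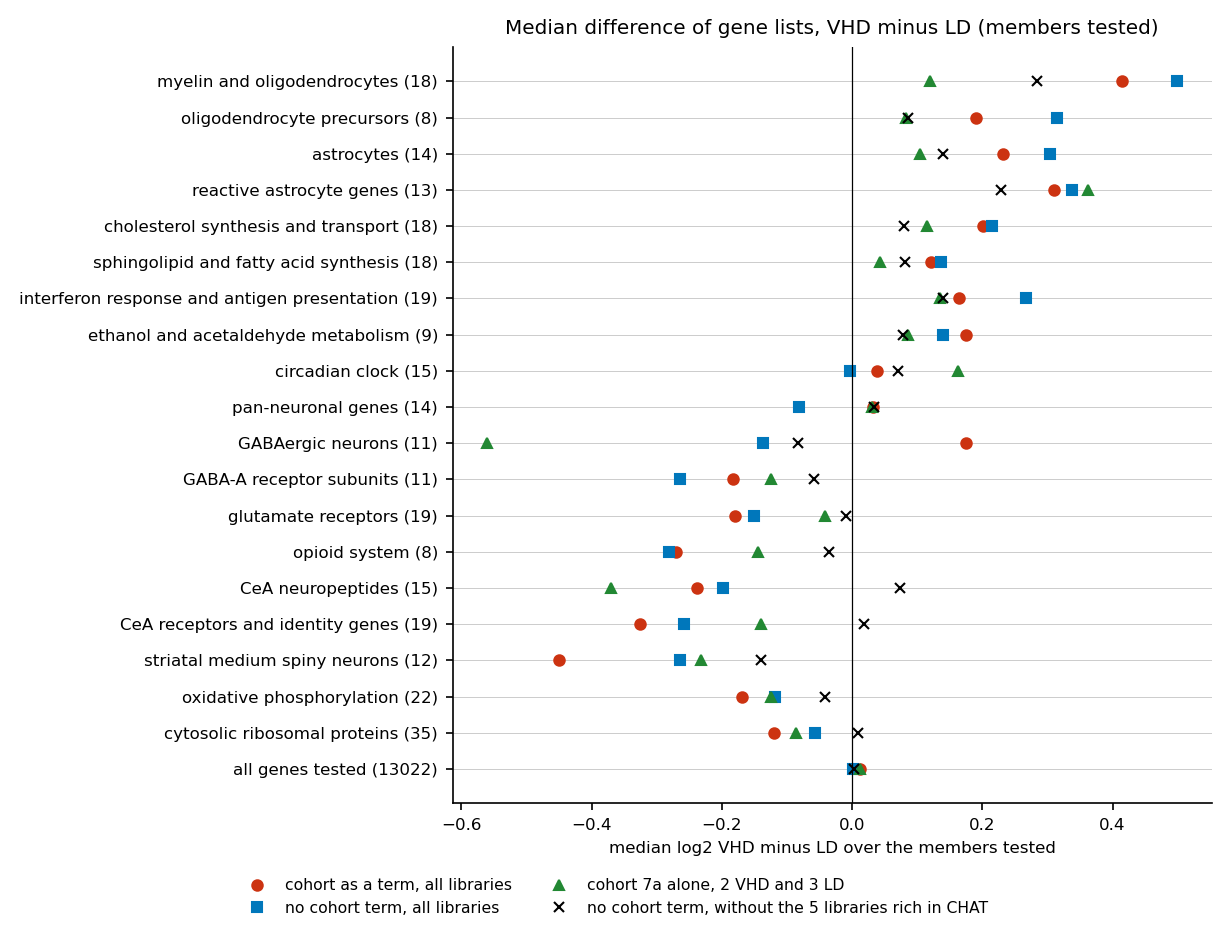
Median log2 difference, VHD minus LD (horizontal axis), of 19 gene lists and of all genes tested, with the number of members tested in brackets. Circles stand for the fit with cohort, squares for the fit without it, triangles for cohort 7a alone and crosses for the fit without cohort and without the 5 libraries rich in CHAT. Myelin lies highest at 0.42 and 0.50, and the crosses of the CeA and receptor lists lie between -0.06 and 0.07.

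VHD animals were also set beside the 7 heavy drinkers (HD), with which they share cohorts 5 and 7a and the same fit. HD was defined by an intake threshold of 3 g/kg on 20% of days. By limma with cohort as a term, 0 of 13022 genes passed, 2025 reached an unadjusted p under 0.05 (15.6%), of which 1188 were higher in VHD (9.12%) and 837 lower (6.43%), and the smallest adjusted p was 0.0983. Without VHD replicate 1, 259 genes passed, and without VHD replicate 6, 448 passed. Without the 5 libraries rich in CHAT, 424 of 12947 genes reached an unadjusted p under 0.05 and 0 passed. TMEM132D averaged 602 ± 152 normalized reads in VHD and 997 ± 291 in HD, a fold of 0.561 (0.439 to 0.716), with log2 differences of -0.997 within cohort 5 and -0.47 within cohort 7a. CNP averaged 8095 ± 1805 in VHD and 4828 ± 799 in HD, a fold of 1.62 (1.28 to 2.05), with 0.66 and 0.98 within the cohorts. PSD2 had a fold of 1.22 (1.10 to 1.36), with 0.37 and 0.20. PENK had a fold of 0.312 (0.123 to 0.796), with -2.39 in cohort 5 and 0.35 in cohort 7a. CHAT had a fold of 11.4 (1.29 to 101), with 3.98 and 5.25. Cholinergic markers were higher in VHD for 9 of 9 genes and myelin genes for 18 of 18 (53.3% of all genes were higher and 46.7% lower), with medians of 3.34 and 0.60. Both comparisons use the same VHD animals.

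At the level of exons, 0 of 112706 passed between VHD and LD (limma), with 6177 at an unadjusted p under 0.05 with cohort (5.48%) and 12181 without it (10.8%). Without cohort, 99 exons passed without VHD replicate 1 and 31 without VHD replicate 6. Exons of the leading genes pointed the same way along the transcript. These genes were named for their gene-level difference, and the exon values come from the same libraries. The agreement is therefore not a separate measurement. All 15 tested exons of PSD2 were higher in each fit, and all 15 of ME3, 9 of TMEM132D, 10 of PTPRR and 4 of PENK were lower in each fit. All 7 exons of CD44, CCNI and TGFB2, 8 of CD81 and 9 of FBXO32 were higher, and 13 of 14 exons of PDPK1 were lower. For PENK, the 4 exon folds with cohort ran from 0.155 to 0.163. The PSD2 exon with the smallest p was 421 bases long, at 290 ± 45.4 normalized reads in VHD and 209 ± 18.2 in LD, and the TMEM132D exon with the smallest p was its longest with 3306 bases, at 266 ± 69.5 in VHD and 426 ± 83.1 in LD. Some single exons stood apart from their genes. An exon of 76 bases of ACAD9, a mitochondrial dehydrogenase, was at 36.5 ± 21.6 in VHD and 67.4 ± 13.9 in LD. Its fold was 0.227 with cohort. Relative to the gene, its log2 difference was -1.98 with cohort and -0.93 without it. VHD replicates 2, 3 and 4 (58, 62 and 47) lay within the LD range of 34 to 82.

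Relative use of exons was the measure in which genes passed. Of 9817 genes with at least 3 tested exons, 17 passed between VHD and LD with cohort (0.173%) and 20 without it (0.204%). The test was the F test of limma's diffSplice at an adjusted p under 0.05. It pools the spread over all exons of a gene, so its p-values do not measure the spread of 1 exon between animals. At an unadjusted p under 0.05 it was 152 genes (1.55%) with cohort and 181 (1.84%) without it. In all, 30 genes passed in at least 1 fit and 7 in both, among them C11orf49, FAM108A1, OGDH, USP7, SYNJ1 and SUCLA2. For each gene, the exon with the smallest p in the exon-level test of diffSplice was taken. It came from the fit in which the gene passed, or from the fit with cohort where both did. Its relative change had the same sign in both fits in 30 of 30 genes. Both fits use the same libraries, so this is not separate support. Reads were few. In 22 of 30 genes this exon had a median under 10 normalized reads in VHD or in LD, and in 24 of 30 it stayed under 100 in every VHD and LD animal. The numbers of genes were 10 and 9 without the CHAT-rich libraries, and 6 and 6 with a filter of 50 normalized reads in place of 10. With cohort 11 genes passed without VHD replicate 1, and without cohort 11 passed without VHD replicate 3 and 13 without VHD replicate 4.

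Several of these exons were present in some animals and nearly absent in others. In C11orf49 an exon of 125 bases (chromosome 11, 18927948 to 18928072) was at 0, 35, 36, 44, 23 and 30 in VHD replicates 1 to 6, against 0 to 4 in 9 LD animals and 30 in LD replicate 6. By diffSplice the adjusted p was 7.61e-06 with cohort and 8.65e-07 without. SUCLA2, a subunit of succinyl-CoA synthetase, had an exon of 147 bases at 0, 3.5 and 66 in VHD, against 3, 56 and 77 in LD, lowest, median and highest, with 5 of 6 VHD animals at 4 or less.

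SYNJ1, synaptojanin, which strips clathrin coats from synaptic vesicles, had the most reads among the exons that passed in both fits. Its exon of 87 bases (chromosome 7, 13913869 to 13913955) was at 76, 65, 211, 216, 51 and 54 normalized reads in VHD replicates 1 to 6, against 150, 252 and 318 in LD, lowest, median and highest. VHD replicates 3 and 4 lay within the LD range and the other 4 below it, with adjusted p-values of 0.0105 and 0.0318 by diffSplice. In FAM108A1 an exon of 167 bases was at 0, 2 and 3 in VHD, against 2, 28.5 and 37 in LD. In OGDH, of the citric acid cycle, and USP7, a deubiquitinase, the exons held at most 1 and 6 normalized reads in any VHD animal, against at most 20 and 32 in LD.

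Very short exons were among those that passed without cohort only. MAPK8IP3, a scaffold of JNK signalling and axonal transport, had an exon of 12 bases (chromosome 16, 1738812 to 1738823) at 7, 3, 0, 2, 1 and 122 in VHD replicates 1 to 6, against 0, 94 and 138 in LD, so 1 of 6 VHD animals was high. Its adjusted p was 1.15e-07 without cohort and 1 with it. ANKS1B, a postsynaptic scaffold, had an exon of 12 bases at 179, 154, 158, 171, 131 and 7 in VHD, against 0, 10.5 and 188 in LD (adjusted p = 0.00152 without cohort and 1 with it). ATP11B, a phospholipid flippase, had an exon of 48 bases at 9, 24 and 35 in VHD, against 2, 5.5 and 25 in LD (7.73e-06 and 0.169). For both 12-base exons VHD replicate 6 was opposite to the other 5 VHD animals.

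**Figure D5:**
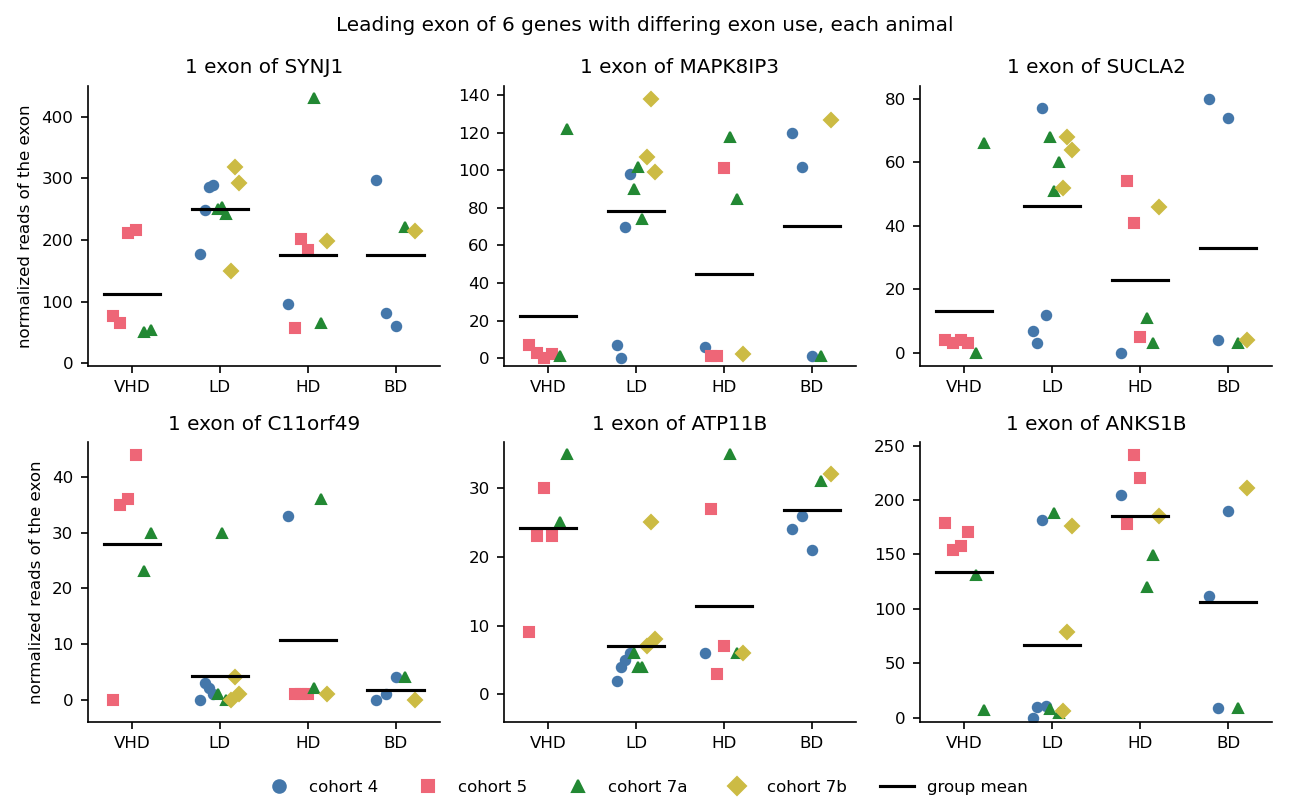
Normalized reads (vertical axes) of 1 exon in each of 6 genes in VHD, LD, HD and BD (binge drinker) animals, 1 point per animal, with the symbol giving the cohort and the bar the group mean. The exon of C11orf49 was at 23 or more in 5 VHD animals and 1 LD animal and at 4 or less in the other VHD and LD animals.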

How the data were processed

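Total RNA of 28 amygdala blocks (6 VHD, 10 LD, 7 HD and 5 BD animals) was made into stranded libraries without ribosomal RNA, per the labels' protocols. CASAVA, FastQC, STAR 2.3.0e and edgeR are named in the submitters' processing notes, with no role or order. The build, annotation and strand setting of counting were not given in the sources used here, so overlapping genes cannot be told apart. The gene table holds a normalized signal that the authors deposited, reads multiplied by 1 upper-quartile factor per library. Its values were whole multiples of 1 read in 100% of cases (tolerance 0.02 reads), from which depth and reads were recovered. The deposited exon table holds the same quantity rounded to whole numbers and was treated as a score. Of 30 sample columns in each of the 2 tables, 2 match no labels and were not used. Of 15521 symbols, 14301 matched RefSeq symbols or synonyms.

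Genes and exons with at least 10 normalized reads in at least 5 libraries were tested with limma 3.58.1 (R 4.3.3) on log2(value + 1), which understates the change of low genes. All 28 libraries shared 1 estimate of spread. In the fits with cohort, HD and BD animals also linked the cohorts, so they helped to set the VHD minus LD differences. VHD was compared with LD with and without cohort, and with HD with cohort. diffSplice tested exon use wherever a gene had 3 or more tested exons. Each animal gave 1 library, so p-values of the gene and exon fits measure the spread between animals. diffSplice pools the spread over the exons of a gene, so its p-values do not measure the spread of 1 exon. edgeR 4.0.16 (quasi-likelihood) and DESeq2 1.42.0 on recovered reads were alternatives, as were other pseudocounts, filters, scalings, sample sets, age in place of cohort and leaving out libraries. The limma gene fit and diffSplice were run on simulated data, and the other tests were not. The simulated data held no cohort differences. Simulated exons shared 1 spread, so that run does not cover exons present in some animals and nearly absent in others. Tables were summarised with Python 3.11.15.

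Genes were named by smallest p among those with a mean of at least 50 normalized reads: 10 per direction and fit, 12 per direction that reached an unadjusted p under 0.05 in both fits with the same sign in cohort 7a, and up to 4 per list. Other genes are markers or background, and some items are not reported here. The members and lists were chosen with earlier results of these data known. Coordinates are those of the deposited exon table. Counting intervals and floors cover counting error only.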

Additional observations from a re-analysis of the deposited data

Results flagged for a closer look

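In 28 of 238 groups of values (each named gene in VHD or in LD), 1 animal stood far from the others of its group. Chance marks about 1 in 20 groups, and no explanation was tested.

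VHD replicate 5 stood apart in AVP (21751 normalized reads, the nearest VHD animal 14.5), OXT (4478, nearest 19.9), PSD2 (3451, nearest 2837), ID3 (341, nearest 199) and EIF3B (1751, nearest 1883). VHD replicate 1 stood high in PENK (10512, nearest 3639) and SESN3 (10288, nearest 7867). VHD replicate 2 stood high in SFXN2 (143, nearest 109) and PRMT10 (407, nearest 377). VHD replicate 3 stood low in DNAJC19 (369, nearest 448) and ZNF132 (93.6, nearest 116). VHD replicate 6 stood high in TBR1 (611, nearest 141).

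Among LD animals, replicate 7 stood high in CHAT (826, nearest 333), SLC5A7 (4991, nearest 1912), GFAP (60195, nearest 38078), CPNE9 (204, nearest 93.8), OPRM1 (392, nearest 249) and OXT (99.7, nearest 13.5), and low in GRM7 (980, nearest 1266). LD replicate 8 stood high in PDYN (2265, nearest 1372), RBFOX1 (5551, nearest 4048) and PSD (5750.2, nearest 4378). LD replicate 1 stood high in AVP (69.6, nearest 31.7), CD109 (660, nearest 484) and LAMA1 (913, nearest 577). LD replicate 3 stood high in GLT25D2 (485, nearest 361) and PRMT8 (497, nearest 360), and LD replicate 5 in MBP (6176, nearest 4167).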

How the results depend on the processing

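Counts of genes past the test depended on the tool. With robust priors and array weights they were 4 (with cohort), 2102 (without cohort) and 1543 (VHD against HD), by DESeq2 4, 307 and 413, and by edgeR 0, 2 and 0. With 1 library left out they ranged from 0 to 1, 0 to 308 and 0 to 448, and exons without cohort from 0 to 99. Genes that passed for exon use numbered 106 and 101 by the Simes test, 6 and 6 with a filter of 50, and 10 and 9 without the CHAT-rich libraries. With 1 library left out they numbered 11 to 22 and 11 to 26. They numbered 9 with cohort in VHD and LD libraries alone, and 34 without cohort without the 3 shallowest libraries. Genes at an unadjusted p under 0.05 with cohort numbered 191 with VHD and LD libraries alone, 1761 with age in place of cohort, 1979 with robust priors and 367 in cohort 7a. No paired analysis was possible because replicate numbers follow accession order. Among named genes, 37 values turned sign. Without the CHAT-rich libraries the log2 differences were, with cohort, -0.0864 (AVP), 0.16 (PDYN), -0.0282 (NR3C1) and -0.73 (CHAT), and without cohort -0.15 (AVP), 0.12 (PDYN), 0.0246 (SST), 0.16 (CRHR1), -0.21 (CHAT), 0.0181 (MC4R), 0.0085 (GRIN1), -0.15 (AIF1) and 0.0228 (PSD). With cohort, NR3C1 was at -0.0021, ALDH2 at -0.0116 and CHAT at -0.44 with the 2 categories alone (NR3C1 -0.0021 and ALDH2 -0.0116 in cohort 7a), ALDH2 at -0.0274 with robust priors and -0.031 without the 3 shallowest libraries, CHAT at -0.19 without those 3, and CRHR1 at -0.10 and AIF1 at 0.0361 with age. With 1 library left out, ranges with cohort were -0.65 to 3.97 (AVP), -0.56 to 4.60 (OXT), -1.60 to 2.504 (CHAT) and -0.0489 to 0.0704 (ALDH2), and without cohort -0.55 to 1.82 (AVP), -0.30 to 2.13 (OXT), -0.18 to 0.0156 (CRHR1) and -0.0292 to 0.11 (AIF1); AVP and OXT turned without VHD replicate 5. The causes were not tested. Depth limits genes near 3 reads.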
